A study of Mus musculus with 2 samples.

Results

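Long intergenic noncoding RNAs (lincRNAs) are transcripts of genes that lie between protein-coding genes and carry no annotated reading frame. The tissue was spleen of 1 male mouse of strain C57BL/6J, 10 weeks old. Of the 2777 lincRNA genes in the deposited gene tables, 115 (4.14%) were expressed by the rule used here. Only 2134 of the 2777 lie outside X and Y and could meet the rule. A gene was taken when GENCODE release M21 classes it as lincRNA, when it does not lie on X or Y, when its mean TPM over both libraries was at least 1 and when its summed expected count was at least 50. TPM is a transcript level that is already divided by transcript length and scaled to the same total in each library. The members were therefore selected on their own level in these 2 libraries, and their levels are given as a description.

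The polyA RNA-seq data consist of 2 libraries. The labels call them technical replicate 1 and technical replicate 2 of the single biological replicate. No treatment, genotype or other tissue was compared, and both libraries share the strain, sex, age and organ. Per the labels, replicate 2 was prepared later than replicate 1. The expected counts on genes were 27528824 for replicate 1 against 3806381 for replicate 2, so replicate 1 was 7.23 times deeper. The comparison reported is replicate 2 over replicate 1. That both libraries come from 1 mouse rests on the labels and was not tested from the files. Most tested genes differed between the libraries by more than counting error, and erythroid markers took a far larger part of replicate 2. Whether the libraries hold the same mix of cells cannot be told from these files, and the ratios describe these 2 libraries and carry no p-value.

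Most lincRNAs are capped, spliced and polyadenylated by the same machinery as messenger RNA, and many are retained in the nucleus. Some build nuclear structures, some carry microRNAs or small nucleolar RNAs inside their transcripts, and some act on the transcription of neighbouring genes. In lymphoid tissue they include the host transcripts of miR-142, miR-155 and the miR-17 to miR-92 cluster, which are known regulators of lymphocyte and myeloid cell development.

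Of the 2134 lincRNA genes outside X and Y, 160 reached the TPM minimum and 132 the count minimum, and 115 reached both. Another 45 genes reached the TPM minimum on too few counts. Just inside the TPM minimum lay Gm33280 with a mean of 1.05 TPM, Gm16211 with 1.11 TPM and Gm17705 with 1.15 TPM. Just outside lay Gm1965 with 0.93 TPM, Gm26514 with 0.91 TPM and Gm36888 with 0.90 TPM. Just inside the count minimum lay Gm11110 with 52 counts, 1700056N10Rik with 53 and 2810429I04Rik with 54. Just outside lay 1700001L05Rik with 49 counts, 4831440E17Rik with 48 and Carmn with 47. The members lie on 19 chromosomes, and 59 of them have 1 annotated transcript.

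The microRNAs inside 3 of the member genes are shown first, because these are the best known products of the group in blood cells. The libraries measured the host transcripts and not the mature microRNAs. Capitals mark the seed, bases 2 to 8 from the 5′ end, which pairs with target messages. Sequences and positions are from RefSeq on GRCm38.p6. From Mir142hg on chromosome 11 come miR-142a-5p and miR-142a-3p, and from Mir155hg on chromosome 16 comes miR-155-5p. From Mir17hg on chromosome 14 come miR-17-5p and miR-20a-5p with the shared seed AAAGUGC, miR-19a-3p and miR-19b-3p with the shared seed GUGCAAA, miR-18a-5p and miR-92a-3p.
miR-142a-5p: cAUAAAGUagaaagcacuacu
miR-142a-3p: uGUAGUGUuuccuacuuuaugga
miR-155-5p: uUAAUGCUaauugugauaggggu
miR-17-5p: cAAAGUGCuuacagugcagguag
miR-20a-5p: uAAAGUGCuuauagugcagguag
miR-19a-3p: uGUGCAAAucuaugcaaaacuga
miR-19b-3p: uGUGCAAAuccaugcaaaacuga
miR-18a-5p: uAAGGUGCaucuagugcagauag
miR-92a-3p: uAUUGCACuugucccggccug

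The libraries were selected for polyadenylated RNA, so the 3′ ends of the leading transcripts are shown next. Capitals mark the poly(A) signal AATAAA, which directs cleavage and tail addition, where it occurs in the last 50 bases. The sequences are the last 60 bases of the transcript with the highest TPM of each gene, from GENCODE M21 on GRCm38 and written as DNA.
Malat1 last 60 bases: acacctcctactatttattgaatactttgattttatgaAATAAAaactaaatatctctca
Neat1 last 60 bases: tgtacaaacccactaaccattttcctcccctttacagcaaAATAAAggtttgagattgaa
AW112010 last 60 bases: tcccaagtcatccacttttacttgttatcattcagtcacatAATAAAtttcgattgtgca
Mir142hg last 60 bases: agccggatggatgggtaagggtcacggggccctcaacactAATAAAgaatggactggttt
Gm42418 last 60 bases: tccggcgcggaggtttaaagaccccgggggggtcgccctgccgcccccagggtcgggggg
Gm26917 last 60 bases: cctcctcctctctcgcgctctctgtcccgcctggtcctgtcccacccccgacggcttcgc
The first 4 carry the signal in their annotated sequence. Whether the RNAs in these libraries end there, and by which process, was not tested. Gm42418 and Gm26917 carry neither AATAAA nor its common variant ATTAAA in this window. These 2 ends consisted of 78.3% and 71.7% G and C, against 23.3% in Malat1.

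Across members, 50 of the 94 whose leading transcript has the same length in both annotation releases held AATAAA in the last 50 bases, and 61 (64.9%) held AATAAA or ATTAAA. Among 9061 tested genes of all classes the share with either was 74.9%. Within the members it was 63.6% of those called higher in replicate 2, 61.5% of those called lower and 67.4% of the others, so the 3 groups lay within 6 percentage points.

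Together the members took a small part of either library. Their TPM added up to 4249 for replicate 1 against 9920 for replicate 2, or 0.4249% and 0.992% of all TPM. Their summed counts were 196300 and 60020, or 0.7132% and 1.577% of the counts on genes. The larger share in replicate 2 rested on Gm42418, Gm26917 and Mir142hg. Without these 3 the sum was 3998 TPM in replicate 1 and 1526 TPM in replicate 2.

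The typical member stood far lower in replicate 2. The median member had 9.85 TPM on 188 counts in replicate 1 and 1.67 TPM on 10 counts in replicate 2. The median over all 12466 tested genes went the same way, with 19.66 TPM and 2.92 TPM. At 10 TPM or more, 56 members were present in replicate 1, 23 in replicate 2 and 21 in both. TPM was higher in replicate 2 for 17 members. Of the 115, 61 reached 1 TPM in both libraries, 53 in replicate 1 alone and 1, Gm26917, in replicate 2 alone.

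**Figure D1:**
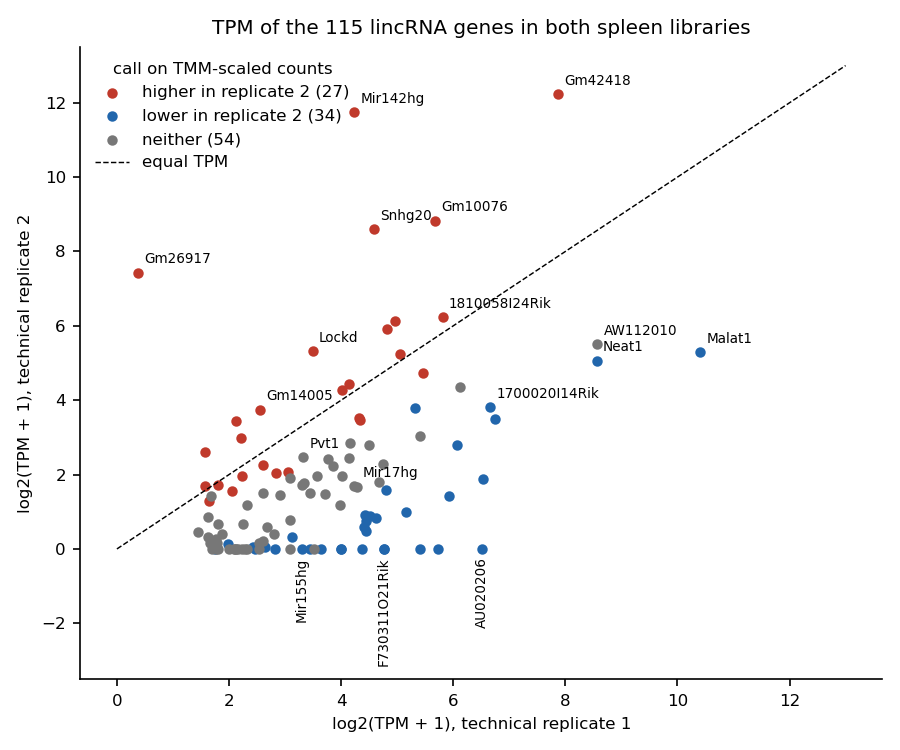
Each point is 1 of the 115 lincRNA genes, with log2(TPM + 1) in replicate 1 on the horizontal axis and in replicate 2 on the vertical axis, coloured by the call on TMM-scaled counts. Most points lie below the dashed line of equal TPM, 28 lie at 0 in replicate 2, and a group led by Gm42418 and Mir142hg lies far above the line.

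A few members held most of the lincRNA signal. The 10 with the highest mean TPM held 61% of the member TPM in replicate 1 and 95.1% in replicate 2. In replicate 1 the highest was Malat1, with 31.79% of the member TPM, and in replicate 2 Gm42418, with 48.3%. The 10 leading members of each library shared 2 genes. Over the 115 members the log2 TPM of the libraries had a Spearman correlation of 0.429 and a Pearson correlation of 0.475, given as a description, since the same values chose the members.

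**Figure D2:**
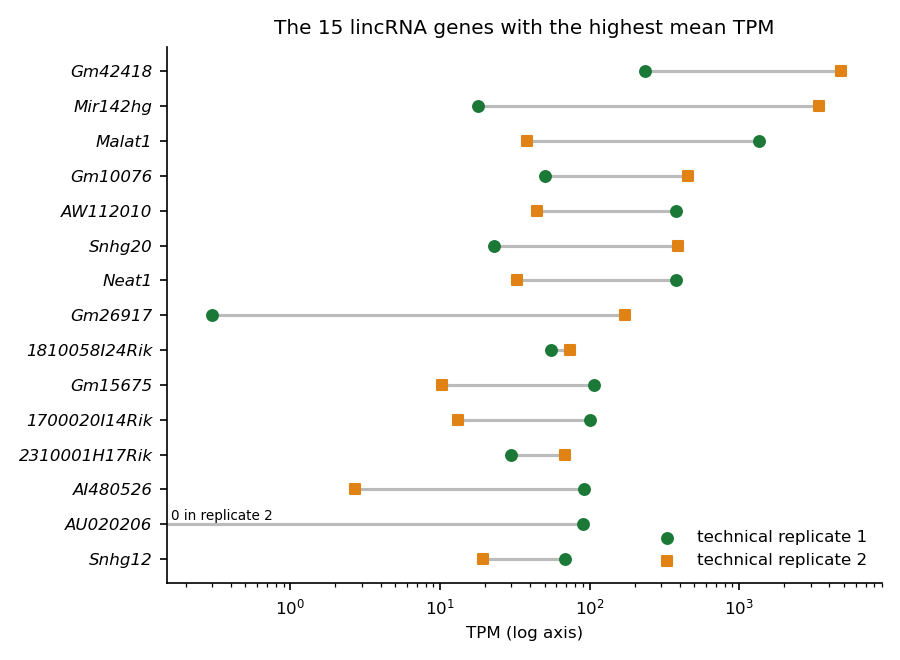
TPM on a log axis of the 15 lincRNA genes with the highest mean TPM, with 1 circle for replicate 1 and 1 square for replicate 2, joined by a line. AU020206 had 90.12 TPM in replicate 1 and is at 0 in replicate 2, so its square is not drawn. Malat1, AW112010 and Neat1 led in replicate 1, and Gm42418 and Mir142hg led in replicate 2.

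For the comparison of counts, expected counts were rounded and scaled by TMM, and each log2 ratio has an exact 95% counting interval. A gene was called higher or lower in replicate 2 when its whole interval lay beyond 1.5-fold. By this rule 27 members (23.5%) were higher and 34 (29.6%) lower, against 28.0% and 32.6% of all tested genes. Both shares lay near that background. The median log2 ratio was -0.28 over members and -0.27 over all tested genes. Single members nevertheless spread widely, from -5.65 to 11.60, with an SD of 2.70 between members and quartiles at -1.75 and 1.03.

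The split of calls rests on the scaling. TMM places every log2 ratio 1.26 above total counts, and DESeq2 size factors place it 1.38 above. With DESeq2 size factors 28 members were higher and 31 lower, against 29.5% and 30.5% of tested genes. With total counts 15 were higher and 64 lower, against 14.6% and 58.5%. With the GC trend of all tested genes removed 40 were higher and 17 lower, against 27.5% and 24.9%, and with the length trend removed 22 and 47, against 30.0% and 26.0%. The TPM ratio was taken without an interval, so both the scale and the call rule differ there. By it 12 members lay above 1.5-fold and 92 below, against 8.40% and 80.8% of tested genes. Under all 3 scalings, with TPM moving the same way, 15 members were higher and 31 lower. Of the 27 called higher under TMM, 10 had a lower TPM in replicate 2. Among the 45 members with at least 20 counts in each library, 23 were called higher and 8 lower. That subset requires counts in the shallower library, which favours genes that are high there.

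**Figure D3:**
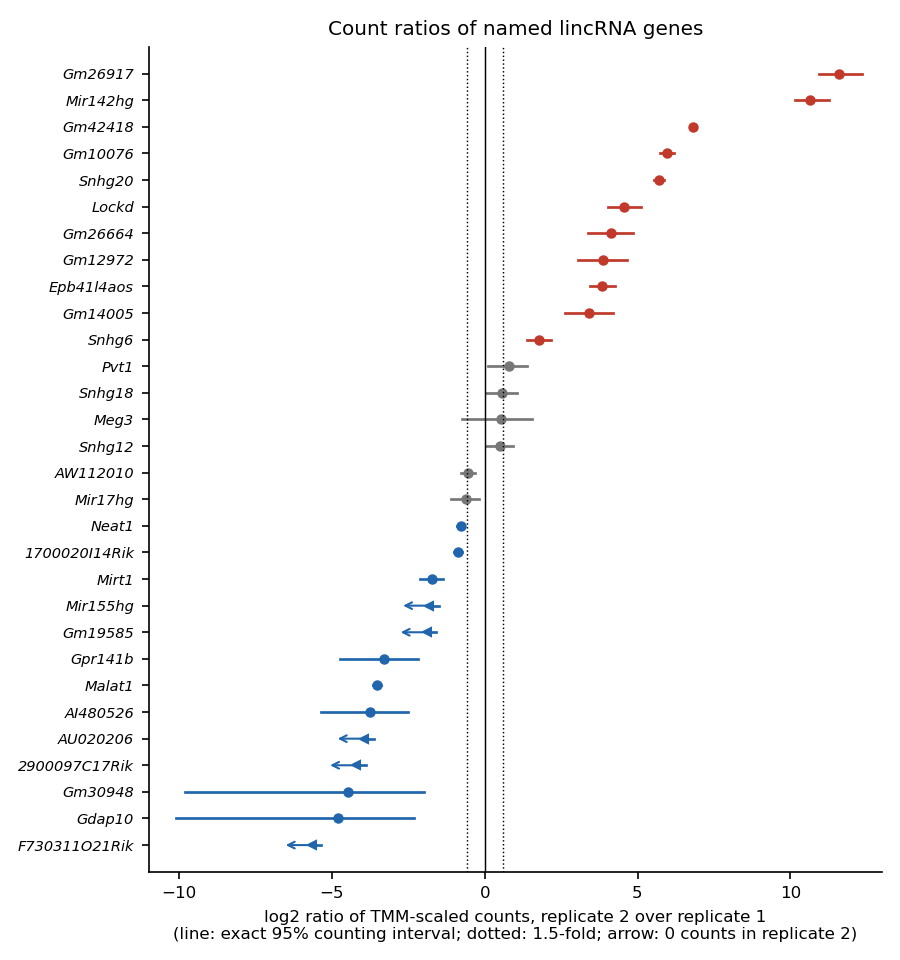
Log2 ratio of TMM-scaled counts, replicate 2 over replicate 1, for the 8 highest and 8 lowest called members and for every member of the lncRNA lists, with the exact 95% counting interval as a line. Arrows mark a count of 0 in replicate 2, where the point was computed with 3 counts in place of 0. The points run from F730311O21Rik at -5.65 to Gm26917 at 11.60.

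Malat1 and Neat1, both nuclear, were among the leading members of replicate 1, and Malat1 alone held 31.79% of the member TPM there. Malat1 (chr19:5795690-5802672, minus strand, GRCm38) is kept in nuclear speckles and is among the most abundant noncoding RNAs of mammalian cells. It had 97258 counts and 1350.91 TPM in replicate 1 and 483 counts and 38.15 TPM in replicate 2. After TMM scaling it was lower in replicate 2 by 11.6-fold, at a log2 ratio of -3.54 with an interval of -3.67 to -3.41. It was called lower under every scaling. Neat1 (chr19:5824708-5845478, minus strand) is the scaffold of paraspeckles and lies close to Malat1 on the same strand. It had 22141.25 counts and 375.57 TPM in replicate 1 and 737 counts and 32.55 TPM in replicate 2. Its log2 ratio of -0.79, with an interval of -0.90 to -0.69, was called lower under TMM and total counts. The call was lost with DESeq2 size factors, at -0.67, with the GC trend removed, at -0.47, and with the length trend removed, at -0.13. The intervals of these 2 neighbouring nuclear RNAs do not overlap.

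Their isoforms have separate deposited levels. These are estimates, because reads of sequence that isoforms share are divided between them. Neat1 makes a short polyadenylated transcript and a long one, whose 3′ end is not made by the usual tail addition, and only the long one builds paraspeckles. The short isoform, of 3004 bases, held 98.2% of the Neat1 TPM in replicate 1 and 94.4% in replicate 2. Both libraries were selected for polyadenylated RNA, so these shares need not hold for all Neat1 RNA of the tissue. The long Neat1-201, of 20771 bases, had 5.78 TPM on 2274.82 counts in replicate 1 and 1.81 TPM on 219.08 counts in replicate 2. For Malat1 the full transcript Malat1-201, of 6983 bases, led in replicate 1 with 52.3% of the TPM and held 26.1% in replicate 2. A transcript model of 656 bases held 41.7% and 62.4%. By expected count the full transcript led in both libraries, with 91782.81 of the Malat1 counts in replicate 1 and 401.15 in replicate 2.

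The same list holds RNAs that are known for work in the cytoplasm, and the 2 of these that are members were both called lower. 1700020I14Rik, known as Oip5os1 or Cyrano and as the RNA that triggers decay of a microRNA, had 12948 counts in replicate 1 and 407 in replicate 2, or 100.13 and 13.10 TPM. Its log2 ratio was -0.87 (-1.02 to -0.73), called lower under every scaling. It was 0.73 and not called with the GC trend removed, and 0.92 and called higher with the length trend removed. 2900097C17Rik, known as Norad, which binds Pumilio proteins in the cytoplasm, had 957.53 counts and 52.22 TPM in replicate 1 and 0 counts in replicate 2. With 3 counts put in for 0 it was 18.4-fold lower, and the upper interval bound of its log2 ratio was -3.90. Its near-identical copy Gm7292, also a member, matched it over 2537 bases at 99.17% identity and had 971.47 counts and 12 counts. Reads of these 2 genes can be divided between them by the quantifier, so neither level is certain. Meg3, an imprinted gene, had 97.36 and 8 counts, and Pvt1, the neighbour of Myc, had 242 and 24 counts. Neither was called, at 0.52 (-0.74 to 1.55) and 0.78 (0.11 to 1.39). By total counts the ratios were -0.75 and -0.48, and with the GC trend removed -1.13 and 1.71, the latter called higher. In the list of nuclear body and chromatin lncRNAs, 0 of 9 tested genes were higher and 5 lower, against 28.0% and 32.6% of all tested genes, and 6 of the 9 are members. Its median log2 ratio was -0.79, against -0.27 over all tested genes.

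Protein partners of these RNAs were read from lists of protein-coding genes, whose counts stand against 28.0% higher and 32.6% lower among all tested genes. Of 16 paraspeckle protein genes, 3 were higher and 8 lower, with a median log2 ratio of -0.69. Among them Sfpq, a core paraspeckle protein, had 577.83 TPM in replicate 1 and 30.24 TPM in replicate 2, and Rbm14 had the highest ratio, 2.54. Of 16 RNA methylation and chromatin partners, 1 was higher and 8 lower, with a median of -1.36, and Hnrnpa2b1 had 991.45 TPM and 24.13 TPM. Of 18 genes of nuclear RNA decay and tail binding, 5 were higher and 5 lower, with a median of 0.01. In this last list Mtrex, the helicase of the nuclear exosome, had the lowest ratio, with 3300 counts and 2 counts, and Exosc5, an exosome subunit, the highest, with 107 and 98.

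Host transcripts of microRNAs differed most in Mir142hg (chr11:87755577-87757270, plus strand). miR-142 is made in almost all blood cell lineages. Mir142hg had 29 counts and 17.82 TPM in replicate 1 and 2713 counts and 3431.58 TPM in replicate 2. The log2 ratio was 10.66 with an interval of 10.14 to 11.25 under TMM. It was 9.40 by total counts, and the TPM ratio was 7.51. Its transcript is 269 bases long, with a deposited effective length of 85 bases for replicate 1 against 134.7 bases for replicate 2. TPM divides by the effective length, so the level of so short a transcript depends on that estimate more than the level of a long one.

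The other blood microRNA hosts did not share this pattern. Mir17hg had 1176 counts and 18.37 TPM in replicate 1 and 44 counts and 2.20 TPM in replicate 2, and was not called at -0.62 (-1.09 to -0.19). It was called lower by total counts, at -1.89, but called higher with the GC trend removed, at 1.13. Mir155hg, whose microRNA is induced in activated lymphocytes and macrophages, had 183 counts and 8.84 TPM in replicate 1 and 0 counts in replicate 2. With 3 counts put in for 0 it was 3.52-fold lower, with an upper interval bound of -1.50 in log2. 6720427I07Rik, which holds Mirlet7d, Mirlet7f-1 and Mirlet7a-1, had 598 and 16 counts and was not called. E130102H24Rik, which holds Mir101a, had 208 counts and 0 counts, 4-fold lower with 3 counts put in for 0 and an upper bound of -1.69. In all, 13 members hold 27 annotated small RNA entries on their own strand, of which 16 are microRNAs in 8 members and 11 are small nucleolar or Cajal body RNAs in 7 members. Snora16a is entered under 2 identifiers.

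Hosts of small nucleolar or Cajal body RNAs, which guide RNA modification, numbered 7 among the members. In Snhg20 and 2900076A07Rik the guides are Cajal body RNAs. Of the 7, 4 were higher and 0 lower under TMM, against 28.0% and 32.6% of all tested genes. Snhg20 and Epb41l4aos were higher under every scaling. Snhg20 had 365 counts and 23.01 TPM in replicate 1 and 1094 counts and 388.31 TPM in replicate 2, at a log2 ratio of 5.70 (5.53 to 5.88). Epb41l4aos had 119 and 99 counts, or 27.15 and 58.84 TPM, at 3.85 (3.45 to 4.25). Snhg6 had 332 and 66 counts at 1.79 (1.38 to 2.17), but its TPM was lower in replicate 2, at 43.26 and 25.68, and its TPM ratio was -0.73. Snhg12, which holds Snora44, Snora61 and Snord99, had 594 and 48 counts, and Snhg18 had 409 and 35. Both were not called, at 0.49 (0.03 to 0.91) and 0.57 (0.03 to 1.07). They were called higher with the GC trend removed, at 1.20 and 1.28, and had ratios of -0.77 and -0.69 by total counts. Snhg6 lost its call by total counts, at 0.52, and with the length trend removed, at 0.87. Over the list of small RNA hosts, members and other classes together, 8 of 18 tested genes were higher and 5 lower, and their median was 0.53, with -0.27 for tested genes as a whole. Snhg15, which is no lincRNA, had 360 and 510 counts at 4.62.

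The immune lincRNAs divided. AW112010, induced by interferon and inflammation in T cells and myeloid cells, had 4194 counts and 378.48 TPM in replicate 1 and 165 counts and 44.22 TPM in replicate 2. It was not called, at -0.55 (-0.78 to -0.33). It was called lower by total counts, at -1.81, and with the length trend removed, at -2.24, but called higher with the GC trend removed, at 1.05. Gm14005, known as Morrbid and as a control of myeloid cell survival, had 39 and 24 counts, or 4.90 and 12.41 TPM, at 3.42 (2.62 to 4.19). Mirt1 had 3574 and 62 counts, or 66.43 and 5.95 TPM, at -1.73 (-2.12 to -1.37). Gm19585 had 193 counts and 0 counts, and AU020206 had 802 counts and 0 counts. With 3 counts put in for 0, AU020206 was 15.4-fold lower, with an upper interval bound of -3.64 in log2. In the immune list 2 of 14 tested genes were higher and 6 lower, against 28.0% and 32.6% of all tested genes, with a median of -0.24. The 2 higher genes were Gm14005 and Gm26917, and whether the reads of Gm26917 come from ribosomal RNA was not tested.

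In whole spleen, fewer cells of a type and less RNA per cell cannot be told apart. Markers of spleen cell types were read in the same libraries. Calls of these markers stand against 28.0% higher and 32.6% lower among all tested genes. All 7 B cell markers reached 1 TPM in both libraries, with 3596 and 1267 TPM in sum, and 3 were called higher and 4 lower. The 7 T cell markers summed to 754.3 and 87.73 TPM, with 0 called higher, 4 lower and 3 neither. Trac had the lowest ratio of these 7, with 1028 counts and 0 counts. The 7 red pulp macrophage markers summed to 1306 and 812.5 TPM, with 3 called higher, 2 lower and 2 neither. The 7 erythroid markers were all called higher in replicate 2 and summed to 42640 and 441900 TPM, so the erythroid genes took a far larger part of replicate 2. Of the 5 pancreas markers all reached 1 TPM in replicate 1 and 1 in replicate 2, with 46.39 and 4.6 TPM in sum. The 4 adipose markers summed to 38.83 and 76.56 TPM. The larger sum rested on Cfd, with 0.79 and 43.42 TPM, while Fabp4, Adipoq and Plin1 had lower TPM in replicate 2. Of the 4 liver markers only Cyp2e1 reached 1 TPM, with Apoa1 and Ttr at 0 in both. The part of all these cell types in the lincRNA differences was not tested.

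The highest level of all members belonged to Gm42418 (chr17:39846958-39848788, plus strand). It had 7323 counts and 233.30 TPM in replicate 1 and 47722 counts and 4790.98 TPM in replicate 2, where it ranked 22nd of all genes. Its log2 ratio was 6.82 (6.79 to 6.86). RefSeq names the locus Rn18s-rs5, a pseudogene related to 18S ribosomal RNA, and an exon of Gm42418 overlaps AY036118 on the opposite strand. Gm26917 (chr17:39843013-39846341, plus strand), upstream of it on the same strand, had 18 counts and 0.30 TPM in replicate 1 and 3221 counts and 171.73 TPM in replicate 2, at 11.60 (10.94 to 12.36). It had the highest ratio and, at 69.1%, the highest GC content of the members. Ribosomal RNA carries no poly(A) tail, and whether reads of these 2 genes come from ribosomal RNA was not tested.

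Gm10076 (chr14:105681828-105682211, plus strand) stood next among the high ratios but cannot be told from a coding gene. It had 186.22 counts and 50.16 TPM in replicate 1 and 666.28 counts and 454.92 TPM in replicate 2, at 5.96 (5.72 to 6.20). It matched Rpl41, a ribosomal protein gene, over 383 of its 384 bases at 99.48% identity. Rpl41 had 3610.78 and 13000.72 counts and the same log2 ratio of 5.96. RefSeq classes Gm10076 as a pseudogene, and the division of reads between the 2 genes is an estimate of the quantifier.

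RefSeq matched 87 members by name. It classes 78 as lncRNA, 6 as protein-coding, 2 as pseudogenes and 1 as a transcribed pseudogene. Of the protein-coding ones, 1810058I24Rik, which encodes a small protein of mitochondria, had the highest level, with 1083 counts and 55.06 TPM in replicate 1 and 317 counts and 73.80 TPM in replicate 2, at 2.34 (2.16 to 2.53). Gpr141b, named for a receptor family, had 1022 counts and 6 counts at -3.30 (-4.75 to -2.17). Of 94 members with a usable sequence, 4 had a copy in another gene at 95% identity or more over at least 50% of the transcript.

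LincRNAs of less studied function made up most of the remaining calls. 2310001H17Rik, whose nearest coding gene is the lymphocyte activation gene Cd69, had 547 and 217 counts at 2.78 (2.55 to 3.01), and Lockd, near the cell cycle inhibitor Cdkn1b, had 51 and 70 counts at 4.57 (4.03 to 5.12). Gm26664, beside the immediate early gene Ier2, had 33 counts in each library at 4.12 (3.38 to 4.86), and Gm12972 had 31 and 26 counts at 3.86 (3.05 to 4.66). The ratios of these last 3 rest on few counts, which the width of their intervals shows. On the other side, F730311O21Rik had 2620 counts and 26.04 TPM in replicate 1 and 0 counts in replicate 2. With 3 counts put in for 0 it was 50.3-fold lower, the largest such value among the members. The upper interval bound of its log2 ratio was -5.35. AI480526 had 1159 and 5 counts at -3.74 (-5.37 to -2.51), Gdap10 had 482 and 1 at -4.80 (-10.10 to -2.31), and Gm30948 had 390 and 1 at -4.49, with a lower interval bound of -9.80. Gm15675 had 7126 and 214 counts at -0.94 (-1.14 to -0.74), but 0.66 with the GC trend removed. With that trend removed Gpr141b, Gm19585 and Mir155hg kept a negative ratio and lost their call, at -1.54, -0.14 and -0.06.

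No count at all was seen in replicate 2 for 28 members, and for none in replicate 1. This was 24.3% of the members, against 6.7% of all tested genes and 4.36% of tested protein-coding genes. The median mean TPM was 6.6 for members and 13.2 for protein-coding genes, so levels differed beside these shares, and the part of the level was not tested. Other noncoding classes that passed the same filter lay between, with 16.1% of 87 antisense genes and 15.5% of 103 processed transcripts. Processed pseudogenes stood higher, with 41.1% of 124. All 28 passed the filter through replicate 1 alone, which was 7.23 times deeper. A member at 0 in replicate 1 would have needed 50 counts in the shallower library. The rule and the depth therefore favour a 0 in replicate 2 over a 0 in replicate 1. The 28 members had 52 to 2620 counts in replicate 1, and 14 of them were called lower. The other 14 include Gm28935 with 75 counts, Gm20939 with 89 counts and Gm11110 with 52 counts, for which 0 counts in the shallower library is compatible with less than a 1.5-fold difference. For these a difference past 1.5-fold was not detected at this depth. The upper interval bounds of the log2 ratio were -0.19 for Gm28935, -0.45 for Gm20939 and 0.35 for Gm11110, so only that of Gm11110 includes equal levels. For the ratio 3 counts were put in for a count of 0, and the upper interval bound lies above the resulting point. Intervals and floors cover counting error only, because PCR copies are not separate molecules.

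Base composition moved with the ratio. Members called higher had a median GC content of 49.3%, those called lower 45% and the rest 46.6%. Over 114 members with a sequence the Spearman correlation of log2 ratio with GC content was 0.353, and over 12436 tested genes 0.532. The correlation with transcript length was -0.317 in members and -0.386 in tested genes. When tested genes were cut into 4 equal bins by GC content at 45.1%, 49.6% and 54%, the 39 members in the lowest bin had 3 higher and 17 lower calls and a median log2 ratio of -0.95. The 11 members in the highest bin had 8 higher and 0 lower calls and a median of 3.86. The tested genes in the same bins had medians of -1.42 and 1.70. In the second bin 13 of 44 members were higher and 9 lower, against 14.3% and 41% of tested genes there, and the medians were 0.07 and -0.81. In the third bin 3 of 20 members were higher and 7 lower, against 29.5% and 24.8%, and the medians were -0.54 and 0.06. From the second bin to the third the median thus dropped among members and rose among tested genes. With the GC trend removed, the median over members was 0.69.

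**Figure D4:**
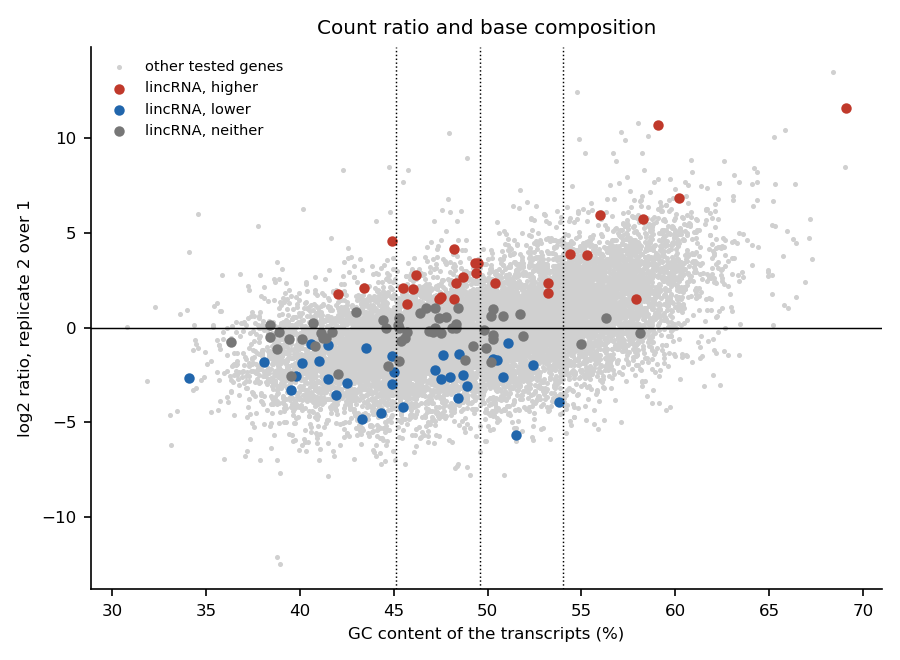
GC content of the transcripts in percent against the log2 ratio of replicate 2 over replicate 1, for lincRNA members in colour by call and for the other tested genes in grey. Dotted lines mark the 4 equal bins of tested genes at 45.1%, 49.6% and 54%. Members in the highest bin include 8 higher and 0 lower calls.

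RefSeq promoter windows, which run from upstream of the transcript start to 50 bases after it, were matched for 69 members. The median GC content was 56.2% and the median number of CpG pairs 18.5 in the 16 members called higher. In the 21 called lower these were 50% and 5, and in the 32 others 52% and 10. All 32851 windows had medians of 52.7% and 7. The windows of 2 members called higher, Snhg20 and Lockd, and of 2 called lower, F730311O21Rik and Mirt1, are given 5′ to 3′ on the strand of the gene. Their positions on GRCm38.p6 are chr11:117076533-117076832 (plus), chr6:134928842-134929141 (plus), chr1:132341834-132342133 (plus) and chr19:53464747-53465046 (minus). The RefSeq start of Snhg20 lies 775 bases from the GENCODE start. This distance was 0 for Lockd and Mirt1, but 162874 bases for Gm19585, 73414 for Gm14005 and 9856 for Mir155hg. The window of Mir17hg lies inside its microRNA cluster and spans Mir20a and Mir19b-1. The medians and motif shares include such windows, which may not be promoters of the member. Capitals mark matches, on either strand, to TATAAA (core promoters), GAGGAAGT (PU.1), CCGGAAGT (ETS factors), TGACGTCA (CREB), CCAAT (NF-Y), GGGCGG (SP factors) or TGACTCA (AP-1). Each was searched on its own, and matches of different motifs may overlap.
Snhg20 promoter: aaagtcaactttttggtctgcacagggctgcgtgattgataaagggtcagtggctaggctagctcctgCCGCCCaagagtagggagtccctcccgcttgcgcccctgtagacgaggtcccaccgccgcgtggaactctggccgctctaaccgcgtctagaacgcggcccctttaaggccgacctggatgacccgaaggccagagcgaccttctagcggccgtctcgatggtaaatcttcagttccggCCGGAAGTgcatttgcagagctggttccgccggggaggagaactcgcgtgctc
Lockd promoter: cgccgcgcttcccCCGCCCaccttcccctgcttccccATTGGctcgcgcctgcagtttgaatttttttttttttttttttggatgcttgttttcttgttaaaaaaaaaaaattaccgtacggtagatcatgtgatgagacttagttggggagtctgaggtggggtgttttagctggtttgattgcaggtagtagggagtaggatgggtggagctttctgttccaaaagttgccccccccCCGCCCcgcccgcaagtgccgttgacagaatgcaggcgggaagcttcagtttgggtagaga
F730311O21Rik promoter: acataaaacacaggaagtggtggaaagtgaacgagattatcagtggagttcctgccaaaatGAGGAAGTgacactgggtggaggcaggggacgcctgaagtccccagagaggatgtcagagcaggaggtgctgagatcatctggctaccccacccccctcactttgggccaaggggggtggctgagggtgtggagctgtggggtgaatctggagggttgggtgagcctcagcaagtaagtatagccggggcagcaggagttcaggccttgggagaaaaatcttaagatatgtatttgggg
Mirt1 promoter: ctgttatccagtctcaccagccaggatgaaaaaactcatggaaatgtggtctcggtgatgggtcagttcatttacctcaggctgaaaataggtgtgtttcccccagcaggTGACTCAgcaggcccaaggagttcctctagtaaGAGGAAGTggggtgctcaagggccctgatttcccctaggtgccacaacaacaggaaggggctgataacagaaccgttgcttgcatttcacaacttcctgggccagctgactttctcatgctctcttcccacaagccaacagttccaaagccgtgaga
Snhg20 holds CCGGAAGT and GGGCGG, and Lockd holds CCAAT and GGGCGG. F730311O21Rik and Mirt1 hold GAGGAAGT, and Mirt1 also TGACTCA. GAGGAAGT is a form of the site of PU.1, a factor of myeloid and B cells, and shares its last 6 letters with CCGGAAGT, the site of other factors of the same family.

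GAGGAAGT occurred in 8 of the 69 windows (11.6%) and in 3.2% of all windows. The members were chosen for their level in spleen and all windows were not, and the share over tested genes was not taken. Of the 8 genes, 4 were called lower, 1 higher and 3 neither. Among all 69 windows, 21 were of members called lower, 16 of members called higher and 32 of the others. Both printed windows of members called lower hold GAGGAAGT. Those of 1700020I14Rik, AU020206, Dubr and E130102H24Rik, also called lower, hold GGGCGG and no GAGGAAGT. GGGCGG occurred in 42% of member windows and 35.7% of all, CCAAT in 33.3% and 37.4%, TATAAA in 8.7% and 13.6%, CCGGAAGT in 7.25% and 3.89%, TGACTCA in 5.8% and 5.2%, and TGACGTCA in 2.9% and 1.79%.  These are matches of letters in a window, read here as a description.

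Members with several transcripts were compared by their leading transcript, the one with the highest TPM. Of 46 such members with counts in both libraries, 32 had the same leader in both (69.6%). The members are a chosen set, so this share describes them and carries no interval. In 12 of the 14 that differed, the leader in replicate 2 was the shorter one. In Snhg12 it was Snhg12-206, of 606 bases, in replicate 1 and Snhg12-207, of 509 bases, in replicate 2. In Pvt1 it was Pvt1-201, of 1563 bases, and then Pvt1-206, of 873 bases. In 5031425E22Rik the leader went from 2110 to 719 bases. Among 26 members with at least 20 counts in each library, 18 kept their leader, and by expected count in place of TPM 26 of 46 did.

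The members lay at a median of 23814 bases from the nearest coding start, and 22 lay within 1000 bases of one. Of these, 14 pointed away from the coding gene. AI480526, beside Setd1b, had 1159 and 5 counts, and Setd1b was also called lower. 5031425E22Rik, beside Kmt2e, went the other way, with a TPM of 32.21 in replicate 1 and 36.57 in replicate 2, while Kmt2e had 83.22 and 1.10. Over 81 members with a tested neighbour the Spearman correlation of the ratios was 0.0727. Where both were called, in 24 pairs, 16 had the same direction, 5 higher and 11 lower. Exons of 36 members overlap an exon of another gene, 9 on the same strand and 31 on the opposite strand. Mirt1 and 4833407H14Rik overlap each other on opposite strands, and both are members, with log2 ratios of -1.73 and 1.03. The sources used here do not say whether counting used strand, so reads of such pairs may be shared.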

How the data were processed

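The 2 polyA RNA-seq libraries each have a gene table and a transcript table from the authors and come from spleen RNA extracted with the RNeasy Lipid Tissue Mini Kit, per the labels' protocols. Per the file headers, the deposited expected count of a gene or transcript includes its part of reads shared with others. The deposited TPM values sum to the same total in both libraries, and the deposited percent value is the share of a gene's TPM in 1 transcript. Lengths and effective lengths, an other measure in bases, are also as deposited. The build is mm10 with GENCODE M4, per the text deposited with the tables. The aligner, the quantifier and the strand setting are not given in the sources used here.

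Gene classes, coordinates and sequences came from GENCODE M21 (GRCm38), which matched 42462 of 43346 Ensembl gene rows. The other 26345 rows stayed out of library sizes and tests, with 1.09e-05% and 2.10e-04% of the counts. GC content and length were averages over matched transcripts, weighted by TPM, also where the releases differ in length. Expected counts were rounded. The 12466 genes that reached a mean of 1 TPM and a summed count of 50 were tested, with TMM scaling from edgeR 4.0.16 under R 4.3.3. Ratios have exact Clopper-Pearson 95% intervals and calls need the interval beyond 1.5-fold, with a floor of 3 counts per library where a count was 0. With 1 library on each side no gene-wise test was possible. TPM ratios used a pseudocount of 1. Copies were searched with blastn 2.17.0. Python 3.11.15 with scipy 1.17.1, pandas 2.3.3, numpy 2.4.6 and, for plots, matplotlib 3.10.9 served the other steps, and the calls were tested on simulated data. Alternatives included DESeq2 1.42.0 size factors.

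Named genes are the 15 members with the highest mean TPM, the 8 highest and 8 lowest ratios among called members, members in a list, members with a count of 0, the 3 genes on each side of each threshold, and the extremes of the lists of other genes. 6720427I07Rik, 5031425E22Rik, Gm7292 and 4833407H14Rik, and some genes of the partner and marker lists, were chosen after their values were seen. The members and lists were chosen with earlier results of these data known.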

Additional observations from a re-analysis of the deposited data

Results flagged for a closer look

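Counts lay outside the genes described above in 2 places. Rows of the gene tables without an Ensembl identifier, which entered no comparison, held 3 counts in replicate 1 and 8 in replicate 2. The 4 lincRNA genes on X and Y that reach the same level held 2190 counts in replicate 1 and 172 in replicate 2. Ftx, a gene of the X inactivation centre, had 1681 and 31 counts, Jpx had 163 and 2, Gm15232 had 180 and 7, and Gm29650 on Y had 166 and 132. No control sample exists for either set. The totals are sums over 26345 rows and over 4 genes, so the 3 counts put in for a single gene at 0 do not measure them.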

How the results depend on the processing

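The number of members called higher was 27 and went to 15 under total counts, 12 by the TPM ratio, which was taken past 1.5-fold with no interval, and 17 without members that overlap another gene. The number called lower was 34 and went to 64 under total counts, 92 by that TPM rule, 17 with the GC trend removed and 10 with at least 1 TPM in each library. The median log2 ratio of -0.28 went to -1.54 under total counts, -1.85 by the TPM ratio, 0.69 with the GC trend removed and 0.78 with at least 1 TPM in each library. That last filter left 61 of 115 members. With fewer genes in the set, counts fall by construction. Of 46 members, 32 kept their leading transcript, and 18 of 26 did when at least 20 counts in each library were required. That is nearly the same share, and by transcript expected count 26 of 46 did. The share of the 10 leading members was 71.2% and 95.5% by expected counts and 67.3% and 96% when ranked within each library. Snhg6 turned to -0.73 by the TPM ratio, Gm15675 to 0.66 and 1700020I14Rik to 0.73 with the GC trend removed, and 1700020I14Rik to 0.92 with the length trend removed. At 0.92 1700020I14Rik was called higher, opposite to its TMM call. For these changes the cause was not tested. Scaling was held fixed when members were filtered. With DESeq2 size factors, 27 of 27 higher and 31 of 34 lower calls were kept. No paired analysis was possible because each side has 1 library. Replicate 2 limits the comparison, with a median of 10 counts per member.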
